A study of Homo sapiens with 8 samples.

Results

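Expression of 10 genes that mark secretory luminal and apocrine breast epithelium was followed through FOXA1 knockdown in SKBR3, an established human breast cancer cell line with amplified ERBB2 (HER2). The members are SCGB1D2, SCGB2A1, SCGB2A2, PIP, AZGP1, AGR2, AGR3, TFF1, TFF3 and SERHL2, and they were found by their symbol in the count table. Of the 10 listed genes, 9 matched a row among 30434 rows, and AGR3 was not analysed here. The libraries were 4 from SKBR3 cells of genotype WT (control) and 4 from SKBR3 cells with the FOXA1 knockdown. Both kinds of cell grew in the same serum-containing medium. The knockdown is a stable derivative made with lentiviruses that carried short hairpin RNAs against FOXA1. The sources used here do not give whether controls carried a vector, whether the knockdown line is a pool or a clone, or whether replicates were separate cultures, so p-values measure only the spread between these libraries.

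FOXA1 is a pioneer transcription factor that opens chromatin for steroid hormone receptors in luminal breast cells. The members belong to several families that such cells secrete or use for secretion. Secretoglobins (SCGB) are small secreted proteins joined as dimers by disulfide bonds, and SCGB2A2 (mammaglobin-A) is a diagnostic marker of breast tissue. PIP, also called gross cystic disease fluid protein, and AZGP1, zinc-alpha-2-glycoprotein, are secreted by apocrine epithelium. AGR2 and AGR3 are protein disulfide isomerases of the endoplasmic reticulum, where AGR2 helps mucins fold. TFF1 and TFF3 are trefoil peptides released with mucus, and both are oestrogen-responsive in breast cancer. SERHL2 encodes a serine hydrolase-like protein that is listed as an apocrine marker rather than for secretion.

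Start regions are shown for SERHL2, SCGB2A2 and AGR2, the members of highest control level per length, with SCGB2A1 beside its paralogue SCGB2A2. The windows of the other members, AZGP1 among them, are not shown. Each region is the RefSeq reference on GRCh38.p14, read 5′ to 3′ on the gene's strand, from 250 bases before the start to 50 bases after it. Capitals mark a forkhead (FOXA) motif, searched as TGTTTAC or TATTTAC on both strands.
SCGB2A2, chr11:62269908-62270207, plus strand: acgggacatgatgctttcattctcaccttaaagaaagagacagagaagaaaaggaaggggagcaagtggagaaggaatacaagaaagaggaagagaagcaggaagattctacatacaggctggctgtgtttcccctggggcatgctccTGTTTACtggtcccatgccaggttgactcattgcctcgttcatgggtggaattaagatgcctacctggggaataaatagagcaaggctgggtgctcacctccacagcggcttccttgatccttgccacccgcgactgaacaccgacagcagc
SCGB2A1, chr11:62208423-62208722, plus strand: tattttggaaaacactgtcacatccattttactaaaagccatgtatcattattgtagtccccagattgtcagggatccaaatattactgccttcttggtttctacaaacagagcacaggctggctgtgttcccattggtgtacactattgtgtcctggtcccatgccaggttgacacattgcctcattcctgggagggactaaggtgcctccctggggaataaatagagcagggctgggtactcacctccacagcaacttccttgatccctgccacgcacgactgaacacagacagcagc
AGR2, chr7:16804950-16805249, minus strand: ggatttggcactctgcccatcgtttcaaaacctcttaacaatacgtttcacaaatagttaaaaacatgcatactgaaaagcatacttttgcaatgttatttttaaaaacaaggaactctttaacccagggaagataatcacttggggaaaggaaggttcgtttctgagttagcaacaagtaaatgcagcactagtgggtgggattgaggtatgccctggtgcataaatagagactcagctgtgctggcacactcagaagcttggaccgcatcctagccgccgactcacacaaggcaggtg
SERHL2, chr22:42553706-42554005, plus strand: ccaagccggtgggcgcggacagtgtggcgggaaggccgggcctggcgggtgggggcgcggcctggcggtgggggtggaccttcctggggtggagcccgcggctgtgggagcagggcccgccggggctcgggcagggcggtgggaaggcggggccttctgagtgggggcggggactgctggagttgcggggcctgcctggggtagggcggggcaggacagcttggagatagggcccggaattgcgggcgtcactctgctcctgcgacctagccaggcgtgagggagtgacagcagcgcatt

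Of the 10 members, 8 matched a start region in the RefSeq table, all but TFF1 and TFF3. A forkhead motif lay in 1 of the 8 windows, that of SCGB2A2, where TGTTTAC spans bases 102 to 96 before the start. Among all 35116 windows of 300 bases, 5.97% held either motif and 3.42% held TGTTTAC. The SCGB2A1 and SCGB2A2 windows matched at 132 of the 150 positions nearest their 3′ end (88.0%), counted without gaps. Over whole windows aligned with gaps, the identity was 67.4%. The 150 positions were a fixed length, and both windows also share letters upstream of them, so their edge is no boundary of similarity. In SCGB2A2, TGTTTAC straddles that edge, and the SCGB2A1 window held no match.

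Base composition differed widely between the windows. That of SERHL2 was 74.3% G and C and that of AGR2 43.7%, with a median of 58.7% over all windows. The half-site AGAACA, which the glucocorticoid receptor binds, was searched on both strands and lay in 1 of the 8 windows, that of PIP (14.8% of all windows held it). A match describes letters in a short window, and these data measured no binding. The AGR2 and SERHL2 windows lie inside gene models of GENCODE 29 that begin further upstream.

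The targeted gene was checked first. FOXA1 had 4180, 4239, 4071 and 4397 counts in controls 1 to 4 against 89, 87, 83 and 92 in knockdowns 1 to 4. That is 2.06% of the control level, so the labels and the target go the same way in all 8 libraries. Library totals ran from 19087878 to 23786684 counts, and 3 counts, taken as the detection floor, equalled at most 0.153 CPM (counts over the library total scaled by TMM, times 1000000). Replicates of a group differed by more than sampling noise in every pair, and control replicate 3 stood apart, with a chi-square per degree of freedom of 4.5 to 5.72 in its pairs against 2.1 to 2.28 between the other controls. Without it the log2 fold changes given below were -7.32 for SERHL2, -5.51 for AGR2 and -2.55 for AZGP1. Of 7 luminal epithelial markers, KRT8, KRT18 and EPCAM were called higher and KRT7, KRT19, ERBB2 and GRB7 lower. The sum of the 7 went from 18640 to 20750 CPM in control to 11610 to 12500 CPM in knockdown. ERBB2, amplified in this line, averaged 7308 CPM in control and 1340 CPM in knockdown, so the sum largely follows this gene and gives no direction for the list. Of 6 basal markers, 5 were tested, with TP63 higher (2 to 4 counts in control and 162 to 191 in knockdown) and ACTA2, KRT17 and MYLK lower, and the sum was 10.8 to 12.9 CPM against 13.2 to 15.2 CPM. Among 4 listed leukocyte markers PTPRC and CD79A had 3 counts or fewer in every library, while CD68 had 93 to 131 counts in control and 3 to 26 in knockdown, and the sum was 4.53 to 5.69 CPM against 0.185 to 1.15 CPM. Among 5 fibroblast markers COL1A2 and DCN had 3 counts or fewer. COL1A1 was called lower (103 to 134 counts in control and 79 to 107 in knockdown) and PDGFRB higher (7 to 12 and 43 to 81). The fibroblast sums were 5.22 to 6.98 CPM in control and 6.21 to 7.66 CPM in knockdown. The 3 endothelial markers summed to 20.7 to 22.1 CPM in control and 19.7 to 22.4 CPM in knockdown. CDH5 was called higher (331 to 375 counts in control and 379 to 478 in knockdown) and VWF lower. The part of these differences in the results below was not tested.

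Reads of the members were far fewer in knockdown. All 9 had a lower mean CPM in knockdown than in control, and in 7 of the 9 every knockdown library lay below every control library, against 21.5% of all rows that were separated downwards. The remaining members, PIP and TFF1, had overlapping groups. That share of rows includes genes too low to be tested, and among the 16430 tested genes 5752 were separated downwards. SCGB1D2 is among the 7 although both of its groups lay at 3 counts or fewer. The members were chosen with earlier results of these data known, so the comparison is a description and no test. In 4 members (SCGB2A1, SCGB2A2, PIP and TFF3) no knockdown library held a single count. Summed over the 9 members, controls held 423.2 CPM ± 31.1 and knockdown libraries 3.71 CPM ± 0.399 (SD over 4 libraries a group). SERHL2 alone supplied 90.8% to 91.8% of the members' control counts. Without it the sum was 36.8 CPM ± 1.81 and 1.37 CPM ± 0.139 (SD over 4 libraries a group), which left 3.71% of the control level. Most of that control sum was AGR2 (19.42 CPM) and SCGB2A2 (11.42 CPM), so this share does not describe each member. AGR2 kept 2.21% of its control level, AZGP1 15.9% and TFF1, whose groups overlapped, 53.0%.

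**Figure D1:**
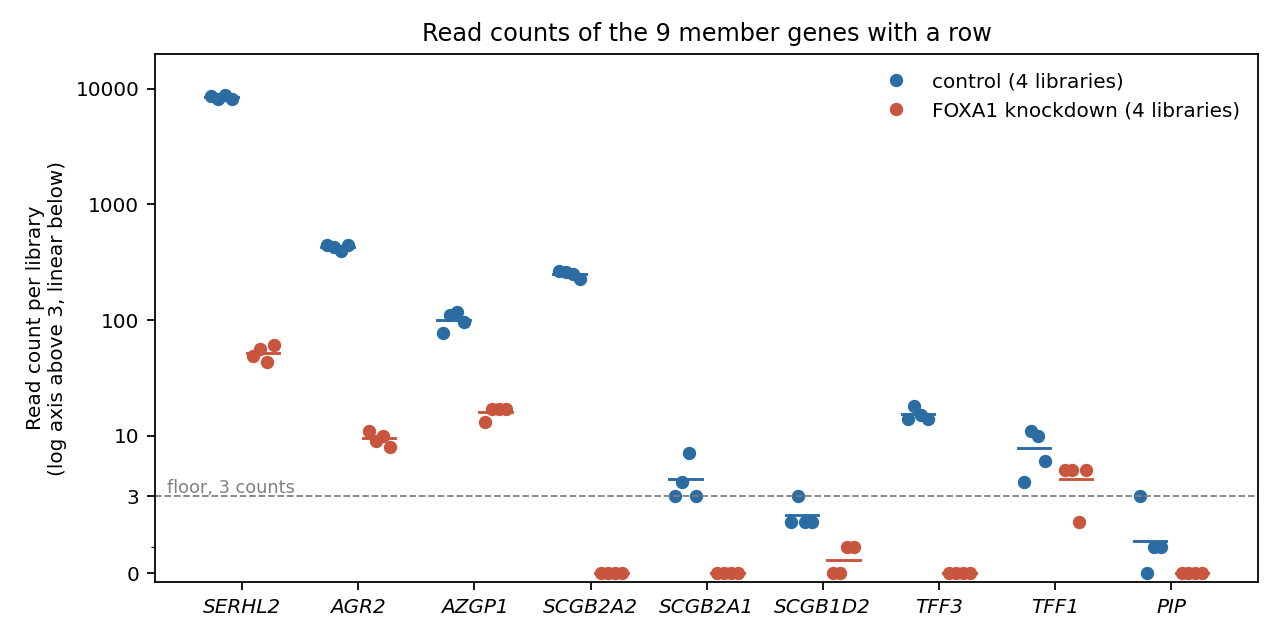
Read counts (vertical axis, logarithmic above 3 and linear below) of the 9 members with a row, with 1 point per library, bars at the group means and a dashed line at 3 counts. Control libraries lie above knockdown libraries for 7 members, and the groups overlap for TFF1 and PIP.

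The filter on low counts kept 16430 genes for the test, and 5 members were among them: SCGB2A2, AZGP1, AGR2, TFF3 and SERHL2. All 5 were called lower, where 37.7% of the tested genes were called lower and 39.4% higher at an adjusted p under 0.05 by edgeR. Only AZGP1 and SERHL2 passed the filter in both groups. The other 3 passed through their control libraries alone and so had to differ, and their calls carry no weight as a count.

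SERHL2 (chr22:42553617-42574382, plus strand, GENCODE 29) was the most abundant member. Its counts were 8640, 8222, 8907 and 8210 in controls 1 to 4 against 49, 56, 43 and 61 in knockdowns 1 to 4. The groups were far apart, with 0.607% of the control level left on average. Control libraries averaged 386.4 CPM ± 29.8 against 2.35 CPM ± 0.328 after knockdown (SD over 4 libraries a group). In edgeR's fit this was -7.36 as a log2 fold change, at adjusted p = 9.19e-22, and the SE from log2 CPM was 0.11. Its exons share 1168 bases with RRP7BP on the opposite strand, which averaged 675.0 counts in control and 497.8 in knockdown. The counting's use of strand is not given, so the residual 43 to 61 counts cannot be told apart from RRP7BP reads.

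SERHL, a nearby and closely related paralogue of SERHL2, showed the same direction with a smaller change. It had 62, 74, 72 and 103 counts in control and 11, 11, 8 and 6 in knockdown, and the groups did not overlap. In edgeR's fit SERHL changed by -3.11 as a log2 fold change, at adjusted p = 1.82e-12, and the SE from log2 CPM was 0.208. SERHL passed the filter through its control libraries alone. Exons of SERHL also share 649 bases with RRP7A on the opposite strand, which averaged 4499 counts in control and 2590.0 in knockdown, so reads of SERHL cannot be told apart from those of RRP7A. SERHL and SERHL2 share sequence, so the division of reads between them is uncertain. In control libraries SERHL2 had 6.79 ± 0.345 more on the log2 scale than SERHL, and in knockdown 2.50 ± 0.506 (SD over 4 libraries a group).

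The disulfide isomerase gene AGR2 (chr7:16791811-16833433, minus strand) had 442, 432, 394 and 444 counts in control and 11, 9, 10 and 8 in knockdown. Every knockdown library held fewer than 12 reads, so the residual level rests on few counts. The level went from 19.42 CPM ± 0.657 to 0.429 CPM ± 0.0708 (SD over 4 libraries a group), and 2.21% of it remained. In edgeR's fit this was -5.49 as a log2 fold change, at adjusted p = 6.14e-23, and the SE from log2 CPM was 0.117. AGR2 passed the filter through its control libraries alone, so the counts rather than this p carry the result. From summed counts, the ratio of knockdown to control was 0.0219, with an exact 95% interval of 0.0155 to 0.0302 that covers counting error only.

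AZGP1 (chr7:99966720-99976157, minus strand), whose product folds like an MHC class I heavy chain and acts on fat cells, kept more of its control level than SERHL2 or AGR2. Its counts were 77, 110, 117 and 96 in control and 13, 17, 17 and 17 in knockdown. The groups did not overlap, and both had reads in every library. Control libraries averaged 4.55 CPM ± 0.900 against 0.725 CPM ± 0.134 after knockdown (SD over 4 libraries a group), with 15.9% remaining. In edgeR's fit this was -2.65 as a log2 fold change, at adjusted p = 2.58e-12, and the SE from log2 CPM was 0.199. The pseudogene AZGP1P1 had at most 4 counts in any library.

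The 3 secretoglobin genes stand in a row on chromosome 11 and differed strongly in level. SCGB2A2 (chr11:62270155-62273156, plus strand) had 268, 258, 252 and 226 counts in control and none in any knockdown library. It was at least 74.8-fold lower, the bound that 3 counts in the smallest knockdown library allows, with an adjusted p of 1.12e-18 by edgeR. SCGB2A2 passed the filter through its control libraries alone, so the counts and the bound rather than this p carry the result. SCGB2A1 (chr11:62208668-62213939, plus strand), or mammaglobin-B, had 3, 4, 7 and 3 counts in control and again 0 in knockdown. It was below the filter and at least 1.28-fold lower by the same bound. SCGB1D2 (chr11:62242210-62244808, plus strand), or lipophilin B, a known dimer partner of mammaglobin-A, had 2, 3, 2 and 2 counts in control and 0, 0, 1 and 1 in knockdown. Both of its groups lay at the floor, so no fold is given.

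The trefoil genes TFF3 and TFF1 lie on chromosome 21 with TFF2 between them, and differed in whether their groups overlapped. TFF3 (chr21:42311667-42315651, minus strand) had 14, 18, 15 and 14 counts in control and none in any knockdown library. That is at least 4.54-fold lower, with an adjusted p of 1.46e-08 by edgeR. TFF1 (chr21:42362282-42366594, minus strand) had 4, 11, 10 and 6 counts in control and 5, 5, 2 and 5 in knockdown, and its groups overlapped. The ratio of its summed counts was 0.542, with an exact 95% interval of 0.281 to 1.01 that covers counting error only, and an exact two-sided permutation test over the 8 libraries gave p = 0.143. In knockdown, 17 reads of TFF1 were counted over the 4 libraries against none of TFF3. No test of that difference was made, because TFF3 was at the floor, and the secretoglobin pairs were left untested for the same reason.

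PIP (chr7:143132077-143139746, plus strand), a defining apocrine marker, was close to undetected even in control. It had 3, 0, 1 and 1 counts there and none with FOXA1 knocked down. Both groups lay at the floor, and a permutation test gave p = 0.143 (exact, two-sided). For each of the other members except TFF1, the same exact test gave p = 0.0286, the smallest that 4 libraries against 4 can reach. With no filter on low counts, edgeR's adjusted p was 8.29e-05 for SCGB2A1, 0.0481 for PIP, 0.124 for SCGB1D2 and 0.131 for TFF1. In that fit 7 members were called lower, where 23.5% of all rows were. The same fit gave SCGB2A2 an edgeR adjusted p of 5.45e-250, against 1.12e-18 with the filter, so its p-values are not comparable with the main ones. PIP, with 5 counts summed over controls and overlapping groups, is among the 7, and that call carries no weight.

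Levels can be compared between genes only per length, here as CPM per kilobase of exon in GENCODE 29. In control, SERHL2 led with 137.0 (range over libraries 125.0 to 150). SCGB2A2 followed with 7.57 (6.46 to 8.14) and AGR2 with 6.83 (6.58 to 7.11), and these neighbours overlapped. AZGP1 came next with 1.69 (1.31 to 2.06), apart from the members above and below it. TFF1, TFF3 and SCGB2A1 had 0.642, 0.594 and 0.375, with overlapping ranges. SCGB1D2 with 0.213 (0.18 to 0.284) and PIP with 0.0974 (0 to 0.235) had the lowest means, and SCGB1D2 overlapped both PIP and SCGB2A1 (0.248 to 0.638). In knockdown SERHL2 had 0.832 CPM per kilobase (0.738 to 1.00) and AGR2 0.151 (0.13 to 0.179). TFF1 with 0.341 (0.185 to 0.42) and AZGP1 with 0.269 (0.205 to 0.321) lay between them and overlapped. Whether fewer cells expressed a gene or each cell held less RNA cannot be told apart in these bulk libraries.

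The 3 members counted in every library of both groups and called lower were SERHL2, AGR2 and AZGP1. Their ratios within a library, which do not depend on scaling, were compared with those of SERHL2 to SERHL as 4 pairs chosen after the values were seen. The log2 ratio of SERHL2 to AZGP1 was 6.42 ± 0.269 in control and 1.67 ± 0.251 in knockdown (SD over 4 libraries a group), a difference of -4.75 (SE 0.184). For AGR2 to AZGP1 it was 2.11 ± 0.328 and -0.72 ± 0.351, a difference of -2.83 (SE 0.24), so AGR2 exceeded AZGP1 in every control library and was below it in every knockdown library. For SERHL2 to AGR2 it was 4.31 ± 0.129 and 2.40 ± 0.385, a difference of -1.91 (SE 0.203). In each of the 4 pairs the groups did not overlap, which is a description with no test, since the pairs were chosen on these values.

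**Figure D2:**
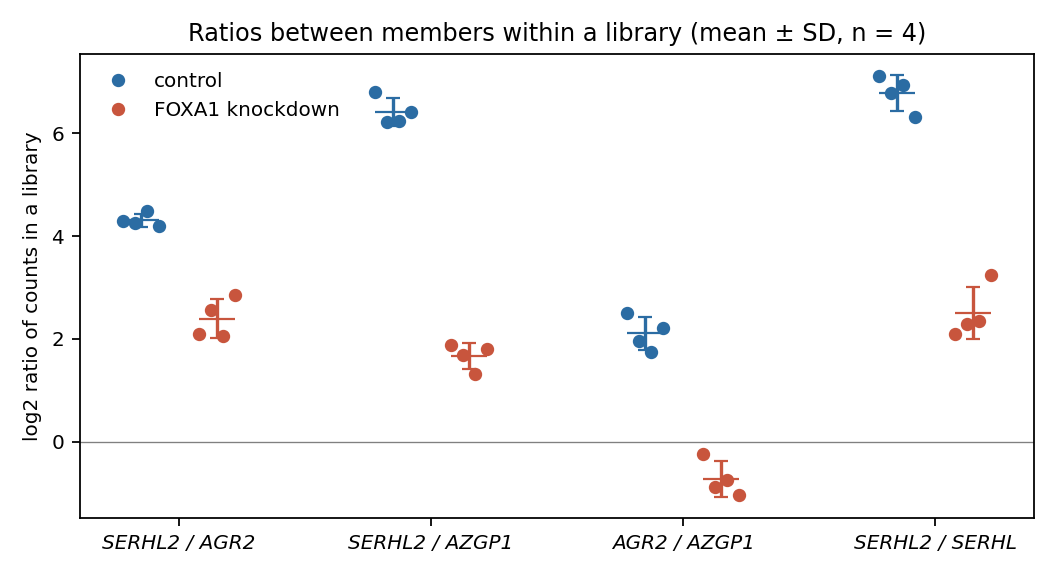
The log2 ratio of counts of 2 genes within a library (vertical axis) for 4 pairs, with points for libraries and bars for the mean and SD of 4 libraries. Control ratios are above knockdown ratios in every pair, and AGR2 over AZGP1 goes from 2.11 to -0.72.

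The genes beside the members gave a local comparison. The 2 nearest tested genes on each side of every member came to 24 different genes outside the member list. Of the 24, 12 were lower, 7 higher and 5 not past the threshold, where 37.7% of all tested genes were lower and 39.4% higher. SERHL is among the 12 lower genes. The median log2 fold change of the 24 was -0.23, against 0.02 for all tested genes. Some lay far off, with AHR 319 kb and SNX13 1050 kb from AGR2. Beside the secretoglobin row, INCENP, a centromere protein gene, averaged 65.55 CPM ± 1.55 in controls against 65.09 CPM ± 1.97 after knockdown (SD over 4 libraries a group; edgeR adjusted p = 0.834). ASRGL1, an asparaginase gene on the other side, rose by 0.24 on the log2 scale (edgeR adjusted p = 0.000322). Around AGR2, the tetraspanin gene TSPAN13 fell by 1.70 on the log2 scale and AHR, the aryl hydrocarbon receptor gene, fell by 1.67, while BZW2 rose by 0.51. Around PIP, the ephrin receptor gene EPHB6 fell by 6.88 and the calcium channel gene TRPV6 fell by 2.71. The highest edgeR adjusted p among these 5 changes was 1.19e-13. The medians over the 50 nearest tested genes lay between -0.25 and 0.07 for the 9 members.

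**Figure D3:**
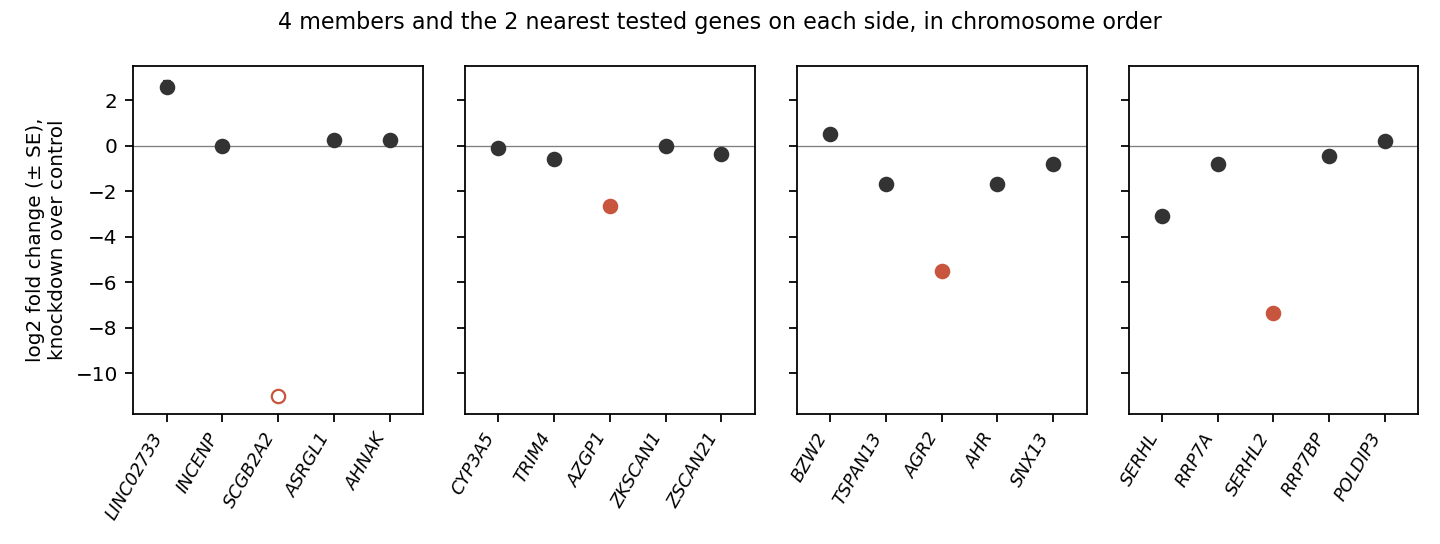
Fitted log2 fold change (vertical axis) of 4 members in colour and the 2 nearest tested genes on each side in chromosome order. Error bars are SEs from log2 CPM, most of them smaller than the points, and for SCGB2A2 the SE measures no spread in knockdown. SCGB2A2, drawn open because its knockdown libraries were at the floor, lies beside genes between -0.01 and 2.58, and each of the 4 members is lower than its 4 neighbours.

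Relatives of the members had few reads, apart from SERHL and TXNDC12. Of 12 listed relatives 6 had a row, and the 2 that were tested were both called lower, SERHL and TXNDC12, a thioredoxin-domain gene of the same family as AGR2 which changed by -0.24 on the log2 scale (SE 0.0311, edgeR adjusted p = 1.7e-05). The gastric trefoil gene TFF2 had at most 2 counts in any library. One secretoglobin had more counts in knockdown. SCGB3A2, known from lung airways and singled out after its values were seen, had 0, 2, 3 and 2 counts in control and 18, 18, 18 and 9 in knockdown. It was just below the filter and at least 4.97-fold higher against the control floor.

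Other secreted products of breast and gland epithelium gave a divided list. Of 13 tested genes among 25 listed, 9 were lower, 3 higher and 1 (LYZ) not past the threshold, with a median log2 fold change of -3.68 against 0.02 for all tested genes, of which 37.7% were lower and 39.4% higher. Of the 9 lower genes 7 passed the filter through their control libraries alone, and the median was -0.48 with no filter and -0.78 among genes averaging 50 or more counts, so neither the count nor the median supports a direction of the list. LCN2, an iron-siderophore carrier, had 319, 312, 347 and 357 counts in control and 1, 0, 0 and 1 in knockdown, at least 99.2-fold lower. ZG16B, a lectin-like secretory protein gene, fell from 19.06 CPM ± 0.736 to 0.261 CPM ± 0.157 (SD over 4 libraries a group; log2 fold change -6.12). The higher of their edgeR adjusted p values was 1.01e-21, and both genes are among the 7 that passed the filter through control libraries alone. The rises were led by CST3, the cysteine protease inhibitor cystatin C, with 98 to 124 counts in control and 1617 to 2022 in knockdown (log2 fold change 4.09, edgeR adjusted p = 1.84e-25). MFGE8, the milk fat globule protein lactadherin, rose from 0.758 CPM ± 0.0742 to 4.06 CPM ± 0.543 (SD over 4 libraries a group; log2 fold change 2.41).

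Of 19 transcription factors linked to luminal and apocrine cells, 16 were tested, with 12 lower and 4 higher (among all tested genes 37.7% were lower and 39.4% higher) and a median of -2.66. Of the 12 lower genes 5 passed the filter through control libraries alone, and among genes averaging 50 or more counts 9 were lower with a median of -1.99. FOXA1 itself is on this list. SPDEF, an ETS factor of secretory cells, had 4598, 4100, 4621 and 4299 counts in control and 16, 8, 6 and 6 in knockdown (log2 fold change -8.94, edgeR adjusted p = 5.44e-16). GATA3 rose by 3.07 on the log2 scale and NR3C1, the glucocorticoid receptor gene, by 1.14 (edgeR adjusted p = 4.2e-22 and 8.41e-18). ESR1, the oestrogen receptor gene, had few counts throughout, with 35, 28, 29 and 28 in control and 0, 1, 2 and 1 in knockdown, at least 8.93-fold lower (adjusted p of 1.23e-10 by edgeR). ESR1 was singled out after its values were seen. SPDEF and ESR1 are among the 5 genes that passed the filter through control libraries alone.

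The folding enzymes that work beside AGR2 in the endoplasmic reticulum held genes that rose and genes that fell. Of 20 listed, 19 were tested, with 10 lower (52.6%, against 37.7% of all tested genes), 8 higher (42.1%, against 39.4%) and 1 (HSP90B1) not past the threshold, and the median was -0.12. P4HB, the main protein disulfide isomerase, fell from 2246 CPM ± 82.9 to 592.8 CPM ± 10.9 (SD over 4 libraries a group), a log2 fold change of -1.92 (SE 0.0296). ERP44, which retains secretory proteins, fell by 0.78 on the log2 scale. ERO1A, the oxidase that recharges disulfide isomerases, rose by 1.34 (SE 0.024) on the log2 scale, and PDIA5 by 0.84 (SE 0.0902). The highest edgeR adjusted p among these 4 was 2.87e-10. The list spanned -1.92 to 1.34 on the log2 scale, beside -5.49 for AGR2, and that difference was not tested.

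**Figure D4:**
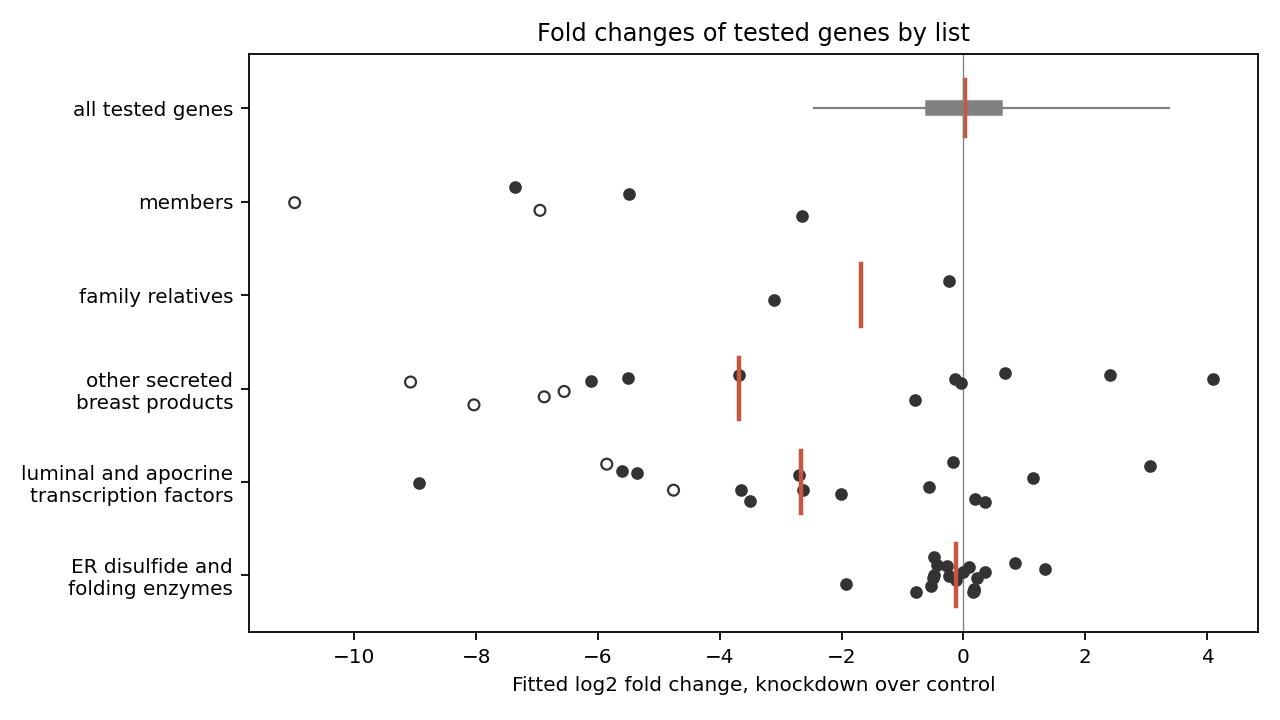
Fitted log2 fold change, knockdown over control (horizontal axis), of tested genes by list, with 1 point per gene and open points where every knockdown library had 3 counts or fewer. Vertical bars are medians of the genes that passed the filter, at -3.68, -2.66 and -0.12 for secreted products (-0.48 with no filter), transcription factors and folding enzymes; the grey bar for all tested genes spans the 25th to 75th percentile and the line the 5th to 95th.

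Genes with the pattern most like the 3 members of highest level per length were found by Pearson's r of log2 CPM over the 8 libraries, among 12419 other genes with an average of 50 or more counts. For SERHL2 they were TMCO3, TMPRSS4 and STAT3, for SCGB2A2 PLA2G2A, PTK6 and SLC12A8, and for AGR2 CYP1B1, TMEM59 and CPE, each with r of at least 0.9997. The measure is dominated by the step between the groups: between 1351 and 1597 genes had r over 0.99 with each of these members. The sizes of change differed among them, with a log2 fold change of -1.77 for TMEM59 and of -8.22 for CPE.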

How the data were processed

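RNA of 8 SKBR3 libraries was sequenced as mRNA libraries on an Illumina NextSeq instrument, per the labels' protocols. What the authors deposited are raw counts, whole numbers per gene under Ensembl identifiers with symbols. The submitters' processing notes name FastQC, Salmon 1.9, DESeq2 and hg38 without roles, and annotation and strand use are not given in the sources used here. If the counts are Salmon estimates, they were rounded before deposit.

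Counts were filtered (filterByExpr, minimum 10), scaled by TMM and tested in R 4.3.3 with edgeR 4.0.16 (quasi-likelihood, robust, Benjamini-Hochberg over 16430 genes, threshold 0.05). CPM uses TMM-scaled totals. SEs come from log2 CPM with 0.5 added to each count and not from edgeR's fit. Where a group had 3 or fewer counts in every library, folds are bounds against 3 counts, covering counting error only. Single values were tested by exact permutation over 70 divisions. Positions and exon lengths come from GENCODE 29 on GRCh38, matched to 96.5% of rows. The test was checked on simulated counts in which few genes changed, so the check does not cover data like these, where most genes were called.

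Members and lists were chosen with earlier results of these data known. Named are FOXA1, the members, the leading 2 falls and 2 rises of each list averaging 50 or more counts, nearest neighbours and genes alike in pattern. Alternatives were other scalings and filters, DESeq2 1.42.0, limma 3.58.1 voom, estimation without robustness, a replicate block, leaving out libraries, and subtracting the median of neighbouring genes. Replicates carry the same numbers in both groups, and what the number marks is not stated.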

Additional observations from a re-analysis of the deposited data

How the results depend on the processing

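SERHL2 and AZGP1, the members that passed the filter in both groups, kept a lower call under every alternative that tested them. Leaving out each library in turn gave log2 fold changes of -7.46 to -7.30 for SERHL2, -5.57 to -5.42 for AGR2 and -2.76 to -2.53 for AZGP1. It gave 5 members called lower and 0 higher each time, beside 6095 to 6306 of all tested genes lower and 6354 to 6559 higher. Of these 5, SCGB2A2, AGR2 and TFF3 passed the filter through control libraries alone, so the count carries no weight. The count of members called lower was 7 with no filter on low counts, where 23.5% of all rows were called lower. PIP, whose groups overlapped, is among the 7, and that fit's p-values are not comparable with the main ones. The count was 4 among genes averaging 50 or more, where 5073 genes were called lower and TFF3 was not tested. Subtracting the median of the 50 nearest tested genes gave -10.83 for SCGB2A2 and -5.24 for AGR2. The fitted value of SCGB2A2 is no bound and ranged up to -8.98. The knockdown minus control difference in the log2 ratio of TFF1 to TFF3 was 4.20 with 0.5 added to each count and 3.31 with 1 added, and neither is an estimate of size, since TFF3 was at 0 in knockdown. Relatives called higher were 0, and 1 (SCGB3A2) with no filter, the range being 0 to 1 when libraries were left out, because the filter then asks for fewer libraries. Relatives called lower were 1 and other secreted products called lower were 5 when an average of 50 or more counts was required, which tests fewer genes. The replicate block gave 6091 genes lower and 6362 higher and 5 members lower. Same-numbered libraries correlated between -0.0355 and 0.168 in their deviations from group means, and controls 1, 2 and 4 correlated best with the knockdown of their own number and control 3 with knockdown 4. The numbers were not taken as pairs, since the labels do not say what they mark, and the replicate block is the alternative that uses them. Depth limits SCGB1D2, SCGB2A1, PIP and TFF1, whose few counts limit what could be detected.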
